A study of Mus musculus with 20 samples.

Results

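The 10 genes Fos, Fosl2, Jun, Junb, Jund, Egr1, Ier2, Ier3, Myc and Mycn, of the immediate-early and Myc families were followed in mouse NSC-34 cells with and without induced HuD. They were chosen by symbol, with earlier results of these data known. All 10 were among the 14924 genes with RNA-Seq and POL-Seq counts, 9 of them (all but Jun) were among the 9621 genes with 3′ end counts, and 4 were among the 1299 protein coding genes with HuD binding windows from CRAC. NSC-34 is a hybrid line made from mouse neuroblastoma cells and motor neuron-enriched embryonic spinal cord, and HuD (ELAVL4) is a neuronal RNA-binding protein. RNA-Seq measured total RNA, POL-Seq measured RNA recovered from polysomes on a sucrose gradient after cycloheximide treatment, and 3′ end sequencing counted the polyadenylated ends of transcripts. CRAC read the RNA crosslinked to His-HA tagged HuD, where reverse transcription leaves small deletions at the crosslinked base.

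In RNA-Seq and POL-Seq, 2 control and 2 HuD induced libraries were made of each kind, and in 3′ end sequencing 3 of each. The induced cells were Trex-HuD NSC-34, transduced with the tetracycline repressor and with a lentiviral, tetracycline-regulated human HuD. By the labels they received 2 µg/ml tetracycline for 48 h. The study's methods name doxycycline at 2 µg/ml for the inducible lines, and which applies was not settled here. The labels call the matched libraries CTRL cells and do not give their construct or whether they received tetracycline, so that an effect of the drug or of the line cannot be told apart from that of HuD. In CRAC, 3 libraries of Trex-HuD NSC-34 were set against 3 of Trex NSC-34 cells without HuD, both given 10 µg/ml tetracycline for 24 h by the labels. The study's running text names another inducer, dose and time for CRAC, and which applies was not settled here. All cells grew in medium with serum, and no acute stimulus meant to induce immediate-early genes is given. The study's methods describe total RNA together with the gradient fractions, so that it may also come from cells given cycloheximide. An effect of cycloheximide on the levels of these mRNAs was not tested. The induction was visible in the Elavl4 row of the RNA-Seq table, where mean CPM (read counts scaled to the normalised library size) went from 87.8 ± 13.6 to 224 ± 17.6 (SD, n = 2), although the adjusted p in edgeR's quasi-likelihood test was 0.0866. The transgene carries no mouse 3′ end, so the Elavl4 end counts do not check it. They were lower by log2 −0.49 in HuD cells (edgeR adjusted p = 0.922, and 0.0306 with the replicate block described below).

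Immediate-early genes are transcribed within minutes of a stimulus without new protein synthesis, and their mRNAs are normally destroyed within minutes as well. Many carry AU-rich elements, runs of the pentamer AUUUA in the 3′ UTR that are bound by decay factors such as the Zfp36 proteins and by stabilizing proteins of the ELAV family, to which HuD belongs. Fos and Jun proteins pair to form the transcription factor AP-1, Egr1 is a zinc finger transcription factor, Ier2 and Ier3 are small immediate-early proteins, and Myc and Mycn pair with Max to drive growth and proliferation genes. Mycn is expressed widely in neuroblastoma.

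The annotated 3′ UTRs held AUUUA in 9 of the 10 genes, 29 copies in all, against 68.6% of the 12757 protein coding genes with counts and a 3′ UTR. The exception was Ier2, whose 755 nt UTR held none, so that the AU-rich label does not describe it by this measure. At least 2 copies were present in 7 of the genes, against 49.4% of all genes. Ier3 was densest with 5 copies in 613 nt, the 98.5th percentile of pentamers per kilobase, followed by Fos with 4 copies in 815 nt, at the 93.8th. Myc had 2 in 466 nt, both beyond the end of its shortest annotated 3′ UTR of 159 nt. The longer motif with UU on both sides of the pentamer was found in Fos and Fosl2 and in 8.24% of all genes. A match is a run of letters in the sense strand and not a known site. The following stretches of GENCODE vM21 transcripts (GRCm38) are shown because they hold the pentamers, in capitals, of genes in which no HuD window was listed. The Fos stretch lies at chr12:85477101-85477130 on the plus strand, 643 nt after the stop codon, and the Ier3 stretch at chr17:35822485-35822514 on the plus strand. The Myc stretch lies at chr15:61990135-61990164 on the plus strand and the Mycn stretch at chr12:12936148-12936177 on the minus strand. In Fos and Ier3, 2 pentamers stand close together, sharing a base in Fos.
Fos: uguguuuucaAUUUAUUUAuuaagauggau
Ier3: uaauuaauAUUUAuguAUUUAuguauaucc
Myc: uaacagauuuguAUUUAauuguuuuuuuaa
Mycn: caaaauguauauAUUUAgugcugcaccuua

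HuD windows were listed on Jund, Egr1, Junb and Ier2 and on none of the other 6 genes. These 4 of 10 compare with 9.88% of the 12947 protein coding genes with counts, and with 12.3% of the 7992 genes whose level lay within the range of the 10. All 12 unique windows lay in 3′ UTRs, and control cells had 0 reads on each. The authors penalised places with control reads before windows were listed, so that this 0 is no test of specificity. Jund, an AP-1 subunit, held 7 windows covered by 31, 273, 274, 281, 298, 179 and 174 HuD reads, with 4 to 20 reads carrying a deletion. Joined where they overlapped or touched, these 7 made 4 regions, so they are not 7 separate sites. The median window on protein coding genes had 26 reads and 5 deletions. By its highest window, Jund ranked 36th of the 1299 genes, and the authors' combined p-value, which was not adjusted, was under 0.05 in 6 of its 7 windows and in none of the windows of the other 3 genes. Egr1 held 3 windows with 15, 28 and 42 reads and 6, 9 and 3 deletions. Junb, the relative of Jund, held 1 window with 13 reads and 4 deletions, and Ier2 1 window with 6 reads and 3 deletions, which is the minimum the authors listed for each measure. Jund thus took 93.6% of the coverage summed over the windows of the 10 genes (Wilson 95% interval 92.3% to 94.7%, counting error only, and overlapping windows share reads). Its share was 83.0% when each gene was counted by its highest window and 73.4% when deletions were counted. Coverage was also set against RNA level. Relative to the level in control cells (CPM per kilobase of exon), the highest window of Egr1 reached 9.49 and that of Jund 6.79 reads per unit, against 0.323 for Junb and 0.182 for Ier2 and a median of 1.17 over 1279 target genes with counts. Egr1 and Jund were near the top of that distribution, at percentiles 93.4 and 90.1, and Junb and Ier2 near its bottom, at 15.9 and 7.74. The replicates were pooled in the deposited table, so no test between libraries could be made.

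None of the windows coincided with a pentamer. The 5 stretches below show the windows of Jund, Junb and Ier2 in capitals, and none contains AUUUA. Each window holds a run of at least 4 U. The authors listed only windows that scored above a threshold on a weight matrix built from their strongest windows, so a run of letters unlike that matrix could not be listed. The first Jund stretch is at chr8:70700321-70700350, the middle one, with 4 windows, at chr8:70700516-70700545, and the last, with 2, at chr8:70700574-70700603, all on the plus strand. The middle and last begin 433 and 491 nt after the stop codon of a 533 nt 3′ UTR, close to its end. The Junb stretch is at chr8:84977180-84977209 and the Ier2 stretch at chr8:84661360-84661389, both on the minus strand.
Jund, first: uuuuuuuuuugCCUUUUGgaagagagaacg
Jund, middle: cucUCUUUUUGuuuGGUUUUGUUUUGcuac
Jund, last: gguucgccGGUUUUGUGUUUUCaguaaagu
Junb: cguauuuuguaUGUUUUUuuuuucugcaaa
Ier2: caacuaccuggAGUUUUAcaaugucagcua

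The single pentamer of Jund lay between its first window and the others, in the stretch at chr8:70700359-70700388 on the plus strand (cgauuccgcccuAUUUAuguuucuacucgg, pentamer in capitals). The 230 distinct 7-nt windows listed on protein coding genes were searched for in every 3′ UTR, in the sense strand, with overlaps counted. They include the windows of Jund, Egr1, Junb and Ier2 themselves, so matches in these genes were fixed in advance, unlike those in genes without a window. Myc held 23 of them, or 49.4 per kilobase, at the 97.6th percentile, and Mycn 36, or 39.4 per kilobase, at the 90.0th. Ier2, which has a window, held 9, or 11.9 per kilobase, at the 12.3rd percentile, and the median gene had 24.1. Jund, with the most coverage, held 14, or 26.3 per kilobase, close to that median. Myc was the highest of the 10 in total RNA and had no window, while Egr1, with 3, was the second lowest.

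**Figure D1:**
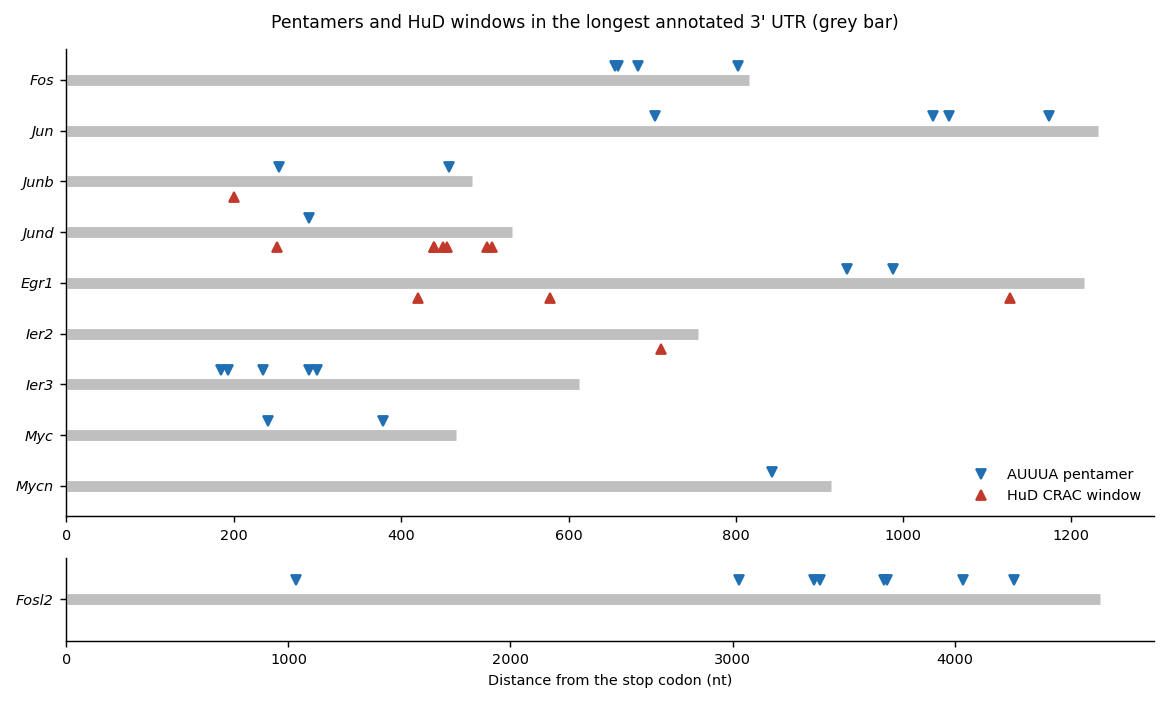
Each grey bar is the longest annotated 3′ UTR of a gene, drawn by distance from the stop codon in nt, with AUUUA pentamers above it (blue) and HuD CRAC windows below it (red). Jund has 1 pentamer and 7 windows, Ier2 a window and no pentamer, and Fos, Fosl2, Jun, Ier3, Myc and Mycn pentamers and no window. Fosl2 has its own scale.

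In total RNA of control cells the genes spanned a wide range of levels. Per kilobase of exon, Myc stood first at 86.3 ± 2.20 CPM per kilobase (SD, n = 2), above Jund at 43.9 ± 4.14, Junb at 40.3 ± 1.93 and Ier2 at 32.9 ± 1.81. Mycn followed at 15.3 ± 0.439 and Ier3 at 14.1 ± 0.222, then Jun at 8.92 ± 0.594, Fos at 8.35 ± 0.018, Egr1 at 4.42 ± 0.830 and Fosl2 at 3.37 ± 0.297. Of neighbours in this order, only Jund and Junb overlapped between their 2 libraries. All 10 genes were thus detected, from the 39.5th percentile of all genes for Fosl2 to the 95.8th for Myc. Whether these are levels of untreated cells is open, since cycloheximide may have been added before total RNA was taken. The exons of Jund overlap those of Gm11175 on the other strand over 877 nt, Junb overlaps Prdx2 over 173 nt, and Jun overlaps Junos over 232 nt. The kit was stranded but use of the strand in counting is not given. Gm11175 and Junos were at 0.400 and 0.374 CPM, far below Jund and Jun, and Prdx2 was at 850 CPM.

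No change in total RNA with HuD was called for any of the 10 genes, and the intervals around their changes differed in width. In bulk RNA such as this, fewer cells with an mRNA and less of it in each cell cannot be told apart. Fos, a classic immediate-early gene and AP-1 subunit, had 19.6 and 19.7 CPM in control cells and 22.4 and 20.5 in HuD cells. Its groups did not overlap, but the log2 change was only 0.13 (SE 0.10, 95% interval −0.09 to 0.35, edgeR adjusted p = 1.00). It was the only one of the 10 that was higher in both HuD libraries, against 15.1% of all genes, and none was lower in both, against 16.7%. Myc had 230 and 239 CPM in control and 232 and 226 in HuD cells, a log2 change of −0.03 (interval −0.21 to 0.14), and Mycn had 49.3 and 51.4 against 50.2 and 49.6, a change of −0.01 (interval −0.19 to 0.16). Jund, with the strongest HuD windows, had 78.1 and 68.3 CPM in control and 73.3 and 73.6 in HuD cells, a change of 0.01 (interval −0.71 to 0.72). The spread was estimated over all 8 libraries, and without POL control replicate 2, which is described below, the interval for Jund was −0.20 to 0.21. Egr1 had 22.5 and 17.2 CPM in control and 22.1 and 17.1 in HuD cells, with replicate 1 above replicate 2 in both, and a change of −0.02 (interval −0.46 to 0.43). The other 5 changes ran from −0.12 for Junb to 0.07 for Fosl2. None of the 10 was called by edgeR's quasi-likelihood test or by DESeq2, and 0 of 10 had an unadjusted p under 0.05 with either. Over all 14906 genes edgeR called 0% and DESeq2 1 gene, and the unadjusted p in edgeR was under 0.05 upward in 1.78% and downward in 0.865%.

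**Figure D2:**
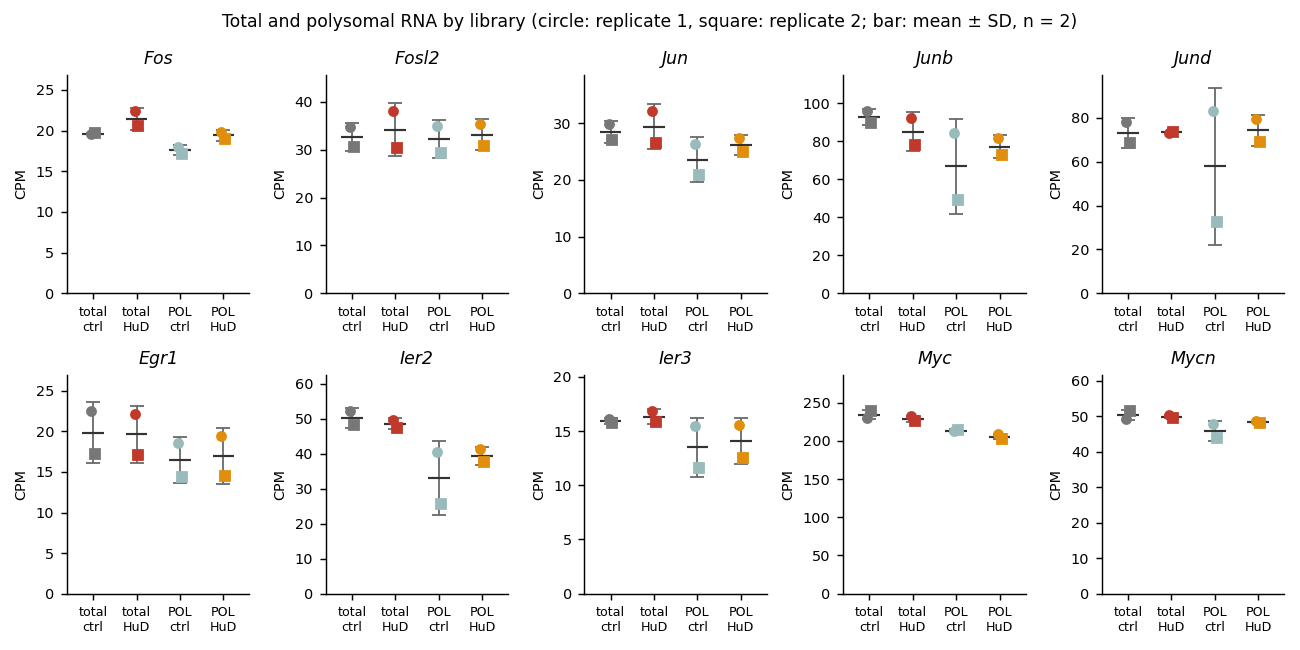
CPM of each gene in the 8 RNA-Seq and POL-Seq libraries, with y axes from 0. Points are libraries and bars the mean ± SD of 2 libraries. No difference in total RNA between control and HuD cells was called in any of the 10 panels, and POL control replicate 2 (square) is far below replicate 1 for Jund, Junb and Ier2.

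In the polysomes, the 2 control libraries disagreed for several of these genes. Jund had 83.1 CPM in POL control replicate 1 and 32.6 in replicate 2, a 2.55-fold gap, and 79.4 and 69.1 in the HuD libraries. Junb had 84.5 and 49.1 CPM in control and 81.6 and 72.8 in HuD cells. Ier2 had 40.5 and 25.5 in control and 41.2 and 37.5 in HuD cells. In each of these 3 genes replicate 2 of the control was the lowest of the 4 polysomal libraries, while replicate 1 was the highest in Jund and Junb and lay between the HuD libraries in Ier2. Replicate 2 was also the shallowest of the 8, with 21296012 counts against 29041469 to 36284728 in the others.

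The gap followed GC content over all genes. The 10 genes all had a transcript GC content above the median of 50.7%, from 51.9% in Fos to 67.1% in Jund, which was at the 99.8th percentile. Over 11874 genes with at least 1 CPM, the median log2 ratio of POL control replicate 2 to replicate 1 went from 0.19 at a GC content under 45% to −0.30 at 60% and over. Pearson's r across genes was −0.46, against −0.20 between the control libraries of total RNA and −0.02 between the HuD libraries of POL-Seq. Genes are not independent replicates. The ratios were −1.35 for Jund, −0.78 for Junb and −0.67 for Ier2, followed by −0.41 for Ier3, −0.36 for Egr1, −0.34 for Jun and −0.25 for Fosl2. These 7 lay below the lower quartile of their GC class, and within the class Ier3 (9.65th percentile) stood lower than Junb (10.7th) or Ier2 (16.4th) and above Jund (1.42nd). Mycn at −0.12 and Fos at −0.07 lay between the lower quartile and the median, and Myc at 0.01 just above the median. Jund, Junb and Ier2 also have a HuD window and, with Jun, a transcript of a single exon (4 of 10, against 2.42% of 12804 genes), and the part of depth, GC content or gene structure in the gap was not tested.

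**Figure D3:**
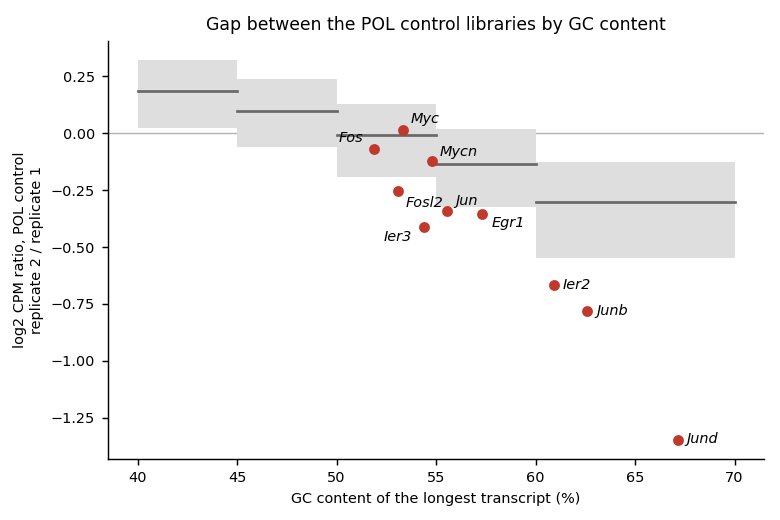
The log2 CPM ratio of POL control replicate 2 to replicate 1 for each gene (red) against the GC content of its longest transcript in percent, with the median (line) and quartiles (grey) of all genes in 5 GC classes. Fosl2, Ier3, Jun, Egr1, Ier2, Junb and Jund, 7 of 10, lie below the lower quartile of their class, with Ier2, Junb and Jund, at 60.9%, 62.6% and 67.1% GC, the lowest.

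The change in polysomal RNA rested on that library. Jund had a log2 change of 0.35 (SE 0.32, interval −0.37 to 1.06, edgeR adjusted p = 0.969), Ier2 of 0.24 (SE 0.17, interval −0.15 to 0.64) and Junb of 0.20 (SE 0.21, interval −0.26 to 0.67). Without POL control replicate 2 the same changes were −0.15, −0.03 and −0.12. Without replicate 1, so that replicate 2 stood alone, they were 1.19, 0.63 and 0.65. In that last fit the lone control library is assumed to vary like the other groups. Jun, Ier3, Egr1 and Fosl2 also turned sign with the library, at −0.0058, −0.13, −0.12 and −0.073 without replicate 2 and 0.33, 0.28, 0.23 and 0.17 without replicate 1. Fos, Mycn and Myc kept their sign in both fits, from 0.12 to 0.18 for Fos, 0.025 to 0.14 for Mycn and −0.039 to −0.060 for Myc. Fos was higher in both HuD libraries, at 19.9 and 18.9 CPM against 18.0 and 17.1, with a log2 change of 0.14 (interval −0.08 to 0.36). Mycn was higher in both at 48.6 and 48.1 CPM against 47.7 and 43.8, a change of 0.08 (interval −0.10 to 0.25). Myc was lower in both at 209 and 203 CPM against 212 and 215, a change of −0.05 (interval −0.23 to 0.12). These 2 higher and 1 lower of 10 compare with 14.1% and 14.6% of all genes. Egr1, at 18.5 and 14.4 CPM in control and 19.4 and 14.5 in HuD cells, changed by 0.04 (interval −0.42 to 0.49), Jun by 0.14, Ier3 by 0.05 and Fosl2 by 0.04, none past the test. None of the 10 was called by edgeR or DESeq2, and 0 of 10 had an unadjusted p under 0.05 with either. Over all 14906 genes edgeR called 0% and DESeq2 3 genes, and the unadjusted p in edgeR was under 0.05 upward in 2.29% and downward in 1.89%. The median change was 0.11 over the 10 genes and −0.01 over all genes, and without POL control replicate 2 the median of the 10 was −0.06.

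Translation efficiency, the ratio of polysomal to total RNA, asks whether HuD moved an mRNA into or out of polysomes beyond its change in level. For Jund the ratio within same-numbered libraries was 1.06 and 0.478 in control and 1.08 and 0.939 in HuD cells, and the log2 change in efficiency was 0.34 (interval −0.66 to 1.35). For Ier2 the ratios were 0.778 and 0.529 in control and 0.831 and 0.792 in HuD cells, a change of 0.29 (interval −0.26 to 0.84). For Junb they were 0.881 and 0.548 in control and 0.885 and 0.934 in HuD cells, a change of 0.33 (interval −0.33 to 0.98). Here too the low value came from replicate 2 of the control, and without it the changes were −0.16, 0.01 and −0.00 for Jund, Ier2 and Junb. Without replicate 1 they were 1.18, 0.68 and 0.78. Myc had the steadiest ratios, 0.922 and 0.899 in control and 0.898 and 0.898 in HuD cells, a change of −0.02 (interval −0.26 to 0.22). The remaining changes ran from −0.03 for Fosl2 to 0.10 for Jun. The ratios did not overlap upward in Junb, Egr1 and Ier2 and downward in Myc, 3 and 1 of 10, against 18.6% and 19.9% of all genes. Neither edgeR nor DESeq2 called any of the 10, and 0 of 10 had an unadjusted p under 0.05 with either. Over all 14906 genes both called 0%, and the unadjusted p in edgeR was under 0.05 upward in 0.409% and downward in 0.570%.

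In control cells the 10 mRNAs were all lower in polysomal than in total RNA, relative to the average gene. By ratios of mean CPM, 44.6% of the 11874 genes with at least 1 CPM were lower too. The log2 differences ran from −0.01 for Fosl2 to −0.59 for Ier2, with a median of −0.24, while the median of all genes was 0.01. Ier2 had 40.5 and 25.5 CPM in polysomes against 52.1 and 48.2 in total RNA (log2 −0.59, SE 0.17, interval −0.98 to −0.20, edgeR adjusted p = 0.420). Junb had 84.5 and 49.1 against 95.9 and 89.6 (log2 −0.47, SE 0.21, interval −0.93 to −0.00, adjusted p = 0.465). These 2 of 10 had an unadjusted p under 0.05 in edgeR, as had 2 of 10 in DESeq2, against 6.25% of all genes in this direction and 4.45% in the other in edgeR. With the replicate block 4 of 10 had one, against 9.92% of all genes. None of the 10 was called by edgeR or DESeq2, beside 0.174% of 14906 genes in edgeR. Both polysomal libraries were below both total libraries in Fos, Jun, Junb, Ier2, Ier3, Myc and Mycn, 7 of 10, against 20.1% of all genes. In Fos these were 18.0 and 17.1 CPM against 19.6 and 19.7, and in Myc 212 and 215 against 230 and 239, with log2 differences of −0.16 and −0.14. GC content moved with this comparison as well, with a median difference of 0.18 for genes under 45% GC and −0.17 for those at 60% and over. The differences of all 10 genes were below the median of their own GC class. With POL control replicate 1 alone, 8 of the 10 were below 0, against 45.4% of all genes, and 8 were below the median of their class. The median of the 10 was then −0.11, and Ier2 was at −0.31. Jund changed sign with the library, from −1.16 without replicate 1 to 0.18 without replicate 2. Fosl2 did so too, from −0.15 to 0.10. Leaving out each of the 8 libraries in turn gave −0.97 to −0.31 for Ier2 and −0.92 to −0.14 for Junb.

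**Figure D4:**
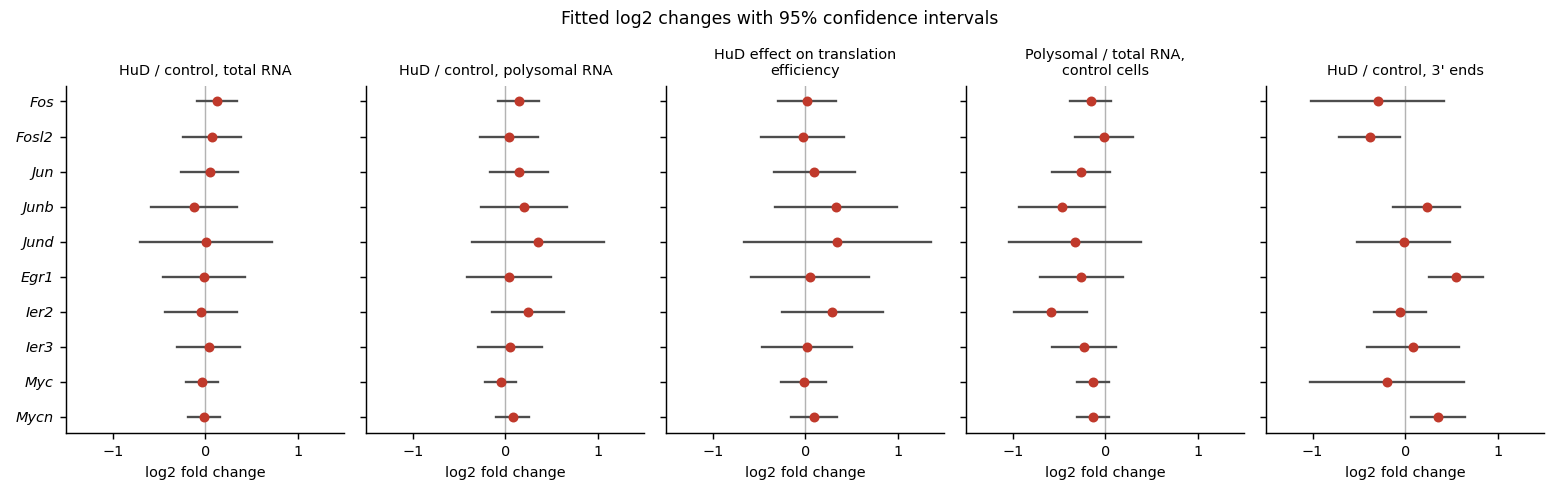
Log2 fold changes (points) with 95% confidence intervals (lines) from the edgeR fits for the 10 genes in 5 comparisons. All intervals include 0 in the 3 columns on HuD in total RNA, polysomal RNA and translation efficiency, and all 10 points lie below 0 for polysomal against total RNA in control cells. Egr1, Mycn and Fosl2 have intervals that exclude 0 in the 3′ end column, where Jun has no value.

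Among the comparisons of HuD with control cells, the largest change in any of the 10 genes was that of Egr1 in 3′ ends. Egr1 had 588, 450 and 561 counts at its end in control cells and 730, 764 and 711 in HuD cells. As CPM these were 37.1, 32.7 and 35.6 against 54.2, 52.4 and 47.2, so that the lowest HuD library was above the highest control library. The log2 change was 0.55 (SE 0.13, interval 0.25 to 0.84). The adjusted p was 0.385 in edgeR without a block, and 0.0191 with the replicate number as a block. Only by the block fit was Egr1 called as higher, and the labels do not state that replicate numbers pair libraries. Egr1 was the only one of 9 called, against 2.26% of 9621 genes called with the block and 0.0520% without it. Leaving out any 1 of the 6 libraries kept the change between 0.50 and 0.60. In total RNA, in other libraries and with counts along the whole transcript, Egr1 did not move in this way, as given above, and the difference between the assays was not tested.

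Mycn had 28.4, 26.7 and 25.9 CPM of 3′ ends in control cells and 35.0, 35.3 and 33.1 in HuD cells, without overlap. Its log2 change was 0.35 (SE 0.13, interval 0.06 to 0.64, edgeR adjusted p = 0.770, and 0.0848 with the block). Fosl2 had 48.6, 37.6 and 41.9 CPM in control and 32.7, 30.3 and 35.1 in HuD cells, again without overlap and in the other direction. Its change was −0.39 (SE 0.15, interval −0.72 to −0.06, adjusted p = 0.805, and 0.0788 with the block). The groups did not overlap upward in Egr1 and Mycn and downward in Fosl2, 2 and 1 of 9, against 6.23% and 5.81% of all genes. The same 3 genes had an unadjusted p under 0.05 in edgeR, beside 2.87% of all genes upward and 3.00% downward. With the block 3 of 9 had one upward, Junb being added, and 1 downward, beside 8.64% and 10.1% of all genes. None was called by DESeq2, where 2 were upward and 1 downward at an unadjusted p under 0.05.

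In the other 6 genes with ends the 2 groups overlapped. Junb had 96.4, 100.3 and 70.1 CPM in control and 98.0, 115.6 and 99.7 in HuD cells, a log2 change of 0.23 (interval −0.13 to 0.59). It was higher in each of the 3 same-numbered pairs, and with the block its interval was 0.03 to 0.46 (edgeR unadjusted p = 0.0313, adjusted p = 0.212). Jund, with the most HuD coverage, had 89.3, 119 and 71.2 in control and 77.5, 117 and 80.9 in HuD cells, with replicate 2 the highest in both groups and a change of −0.02 (interval −0.52 to 0.48). Ier2 had 53.1, 51.5 and 49.9 against 53.3, 49.5 and 45.6 (−0.06, interval −0.34 to 0.22), and Ier3 96.6, 63.2 and 96.1 against 96.2, 66.5 and 109 (0.09, interval −0.41 to 0.58). Among the 4 genes with HuD windows the changes were therefore 0.55, 0.23, −0.02 and −0.06, and among the 5 without windows they lay between −0.39 and 0.35.

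Fos and Myc were poorly covered by this assay. Fos had 70, 72 and 48 counts in control and 50, 65 and 32 in HuD cells, a log2 change of −0.30 (interval −1.02 to 0.42, and −0.75 to 0.11 with the block), with lower counts in each of the 3 same-numbered pairs. Myc had 11.1, 10.3 and 6.54 CPM in control and 8.24, 12.1 and 4.05 in HuD cells, a change of −0.20 (interval −1.02 to 0.63). Relative to its total RNA, Myc had 0.108 end CPM for each CPM per kilobase, at the 2.59th percentile of 8814 genes, and Fos had 0.507, at the 14.3rd, against a median of 2.06. Fosl2, at 12.7, and Egr1, at 7.94, were at the 93.5th and 86.9th percentiles. The authors counted only reads that started within 10 nt of a known end, and how much of the RNA of Myc ended elsewhere was not tested. Jun had no listed end.

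Myc was the only one of the 10 with 2 listed ends, at positions 61990253 and 61990352 of chromosome 15 on the plus strand. Both of its pentamers lie in the annotated 3′ UTR, which ends at 61990374, and 1 of them lies beyond the proximal listed end. The distal end took 23.9%, 17.6% and 30.1% of the Myc counts in control cells and 20.7%, 23.9% and 18.0% in HuD cells, which are 23.9% ± 6.25 and 20.9% ± 2.92 (SD, n = 3). The libraries overlapped, and the relative log2 change of the distal end was −0.06 (edgeR diffSpliceDGE with Simes' method, adjusted p = 1.00). With 11 to 42 counts at the distal end in a library, only a large shift could be seen. Of 3317 genes with several ends, 0.0301% were called.

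**Figure D5:**
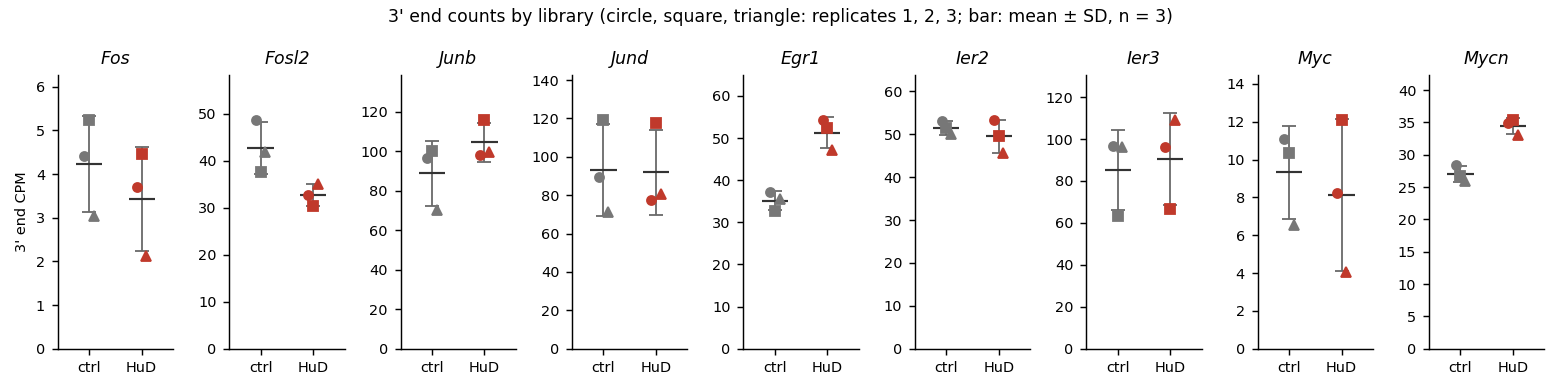
CPM of 3′ ends for the 9 genes with listed ends in 3 control and 3 HuD libraries, with y axes from 0. Points are libraries and bars the mean ± SD of 3 libraries. Egr1 and Mycn are higher in every HuD library than in any control library, and Fosl2 is lower.

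Across the 8 RNA-Seq and POL-Seq libraries the 10 genes mostly varied in the same direction. The 45 pairwise Pearson correlations of log2 CPM had a median of 0.78 and ran from 0.10 (Fosl2 with Myc) to 0.95 (Junb with Ier2). They share the depth and base composition of the same 8 libraries, and without POL control replicate 2 the median was 0.55. The median over all pairs of 9702 genes was 0.03, and over pairs of the 4545 among them with a GC content above the median 0.07. Fosl2 and Jund were nearly unrelated to Myc, at 0.10 and 0.12. The genes most like Fos over the 8 libraries, among 9702 genes with a mean of at least 10 CPM, were Abcg4 (r = 0.95), Selo (0.95) and Zbtb4 (0.95). Those most like Myc were Troap (0.99), Zfp553 (0.96) and Ppp1r18 (0.95). None of these 6 belongs to the gene lists below.

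Wider lists of the same biology were measured beside the 10 genes, and none of their members was called by edgeR in any of the comparisons without a block. Of 50 other immediate-early genes, 45 were tested in total RNA and polysomes, and an unadjusted p under 0.05 was found upward and downward in 2 and 0 of them in total RNA, 5 and 0 in polysomal RNA, 0 and 0 in translation efficiency and 1 and 5 in control polysomes. Over all genes the shares were 1.78% and 0.865%, 2.29% and 1.89%, 0.409% and 0.570%, and 4.45% and 6.25%. With the replicate block 12 of the 45 were lower in control polysomes at this level, against 9.92% of all genes. Atf3, a stress-induced AP-1 partner, and Dusp1, a phosphatase of MAP kinases, had the smallest p-values in polysomal RNA, with log2 changes of 0.44 and 0.33 (both adjusted p = 0.969). The median of this list was 0.06 in polysomal RNA and −0.15 for polysomal against total RNA in control cells, against −0.01 and 0.01 over all genes. In total RNA Per1 (0.25) and Atf3 (0.30) came first, in translation efficiency Dusp6 (0.22) and Csrnp1 (0.26), and in control polysomes Id3 (−0.31) and Csrnp1 (−0.32), none past the test. In 3′ ends, where 30 were tested and 1 and 4 had an unadjusted p under 0.05 upward and downward (2.87% and 3.00% of all genes), Gadd45b (−0.60) and Nr4a3 (−0.73) came first. With the replicate block, Dusp6, which turns off ERK, rose (log2 0.31, edgeR adjusted p = 0.0307) and Gadd45b, a stress response gene, fell (−0.61, adjusted p = 0.0369). These were 1 of 30 called upward and 1 downward, where 2.26% of all 9621 genes were called either way. In that fit 4 of the 30 had an unadjusted p under 0.05 upward and 10 downward, against 8.64% and 10.1% of all genes. HuD windows were listed on 7 of the 50, against 9.88% of all genes and 12.3% of those at the level of the 10: Cyr61, Dusp6, Klf10, Klf6, Phlda1, Zfp36 and Zfp36l2. The last 2 encode decay factors that bind AUUUA, and Zfp36l2 had 3 windows with up to 71 reads.

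Of 15 AP-1 partners and dimer regulators, 12 were tested in RNA and 10 in 3′ ends. Without the block, an unadjusted p under 0.05 was found only in Atf2, which was higher in total RNA and in control polysomes. These are 1 of 12 each, against 1.78% and 4.45% of all genes. The block added Jdp2 in polysomal RNA (1 of 12, against 643 of 14906 genes upward). It also added Creb1 in control polysomes (2 of 12 with Atf2, against 10.7%). Atf2 (0.20) and Nfe2l2 (0.18) had the smallest p-values in total RNA, Jdp2 (0.40) and Mafg (0.13) in polysomal RNA, Nfe2l2 (−0.14) and Mafk (0.11) in translation efficiency, Atf2 (0.22) and Creb1 (0.25) in control polysomes, and Nfe2l1 (−0.10) and Atf4 (−0.13) in 3′ ends. HuD windows were listed on 6 of the 15, against the same 9.88% of all genes, namely Atf2, Atf4, Crem, Mafk, Nfe2l1 and Nfe2l2. Of 21 genes of the Myc network, 19 were tested in RNA and 16 in 3′ ends, with Ruvbl2 (−0.19) and Mxd3 (−0.21) first in total RNA, Ruvbl1 (−0.20) and Max (0.19) in polysomal RNA, Mga (−0.33) and Max (0.28) in translation efficiency, and Mga (0.39) and Zbtb17 (−0.19) in control polysomes. In 3′ ends Mlxip (−0.39) and Mxd4 (0.37) came first. Mxd4, an antagonist of Myc at Max, rose with the replicate block (0.37, edgeR adjusted p = 0.0227). It was 1 of 16 called in that fit, against 2.26% of all genes. Max, the obligate partner of Myc and Mycn, and Mxi1 had a HuD window each, with 6 and 16 reads. All 20 genes of serum response and ERK or JNK signalling were tested in RNA and 18 in 3′ ends, with Srf (−0.19) and Elk4 (0.14) first in total RNA, Elk4 (−0.17) and Map2k1 (0.17) in polysomal RNA, Elk4 (−0.31) and Map2k1 (0.29) in translation efficiency, Rps6ka3 (0.31) in control polysomes, and Mkl2 (−0.34) and Rps6ka2 (0.25) in 3′ ends. Without the block, an unadjusted p under 0.05 was found in the Myc network downward in 1 gene in total RNA (0.865% of all genes). It was also found there downward in 1 in 3′ ends (3.00%) and upward in 1 in control polysomes (4.45%). In the signalling list it was found upward in 3 in control polysomes (4.45%) and in 1 each way in translation efficiency (0.409% and 0.570%). The windows listed on this group included those of Mapk9 and Mapk10.

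The cells carried neuronal markers and nearly none of other types. Of 13 neuronal and motor neuron markers 12 had counts, with Tubb3 at 599 and Isl1 at 40.9 CPM in control cells, but Chat at 0.524 and Mnx1 not listed. Without Elavl4, the row that holds the transgene, the other 11 summed to 1626 and 1713 CPM in control and 1585 and 1556 in HuD total RNA. The sum was thus lower in both HuD libraries, as were 16.7% of all single genes. In polysomal RNA the sums overlapped, at 1754 and 1782 in control and 1802 and 1714 in HuD cells. The part of this sum in the results was not tested. Of astrocyte markers 1 of 4 was listed (Gfap, 0.574 CPM), and the oligodendrocyte marker Mbp was at 5.81 CPM. None of the 3 microglia or 3 fibroblast markers had counts, although a HuD window with 27 reads was listed on Col1a2.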

How the data were processed

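Per the labels and the study's methods, the authors made stranded mRNA libraries for RNA-Seq and POL-Seq and aligned them with STAR 2.5.3a to GRCm38.p4 with Gencode M6, and deposited raw counts of reads per gene. For 3′ ends the deposited counts are reads starting within 10 nt of a known end. For CRAC (TopHat2 2.0.14) the authors pooled the replicates, penalised control signal, and deposited per window the coverage as a signal in reads, the count of deletions (at least 3, with at least 6 reads), an unadjusted combined p-value, and a score against their weight matrix, which had to pass a threshold for a window to be listed. The score was not used in any comparison.

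The 10 genes, the wider lists and the tests were chosen with earlier results of these data known. Named were all 10 genes, members of the wider lists past the threshold or else the 2 with the smallest p-value (some of these items are not reported here), and the 3 genes most correlated with Fos and with Myc. The 18577 rows of the 3′ end table were reduced to 14536 unique ends and summed per gene. CRAC rows were reduced to unique windows, whose printed positions were set by matching the listed letters to GENCODE vM21 transcripts. The longest annotated 3′ UTR was used.

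Counts were fitted in edgeR 4.0.16 (R 4.3.3; TMM, filterByExpr, quasi-likelihood test, Benjamini-Hochberg adjustment over all genes tested, threshold 0.05), with the 4 groups of RNA-Seq and POL-Seq libraries in 1 fit and the 3′ ends in another. Translation efficiency was the interaction of fraction and HuD. Standard errors were derived from the F statistic. CPM are on the normalised library sizes, and CPM per kilobase uses the union of exons. The correlations and GC ratios used a pseudocount of 0.1 CPM. Total counts were 21296012 to 36284728 in RNA-Seq and POL-Seq and 12986862 to 15751036 in 3′ end libraries. The study calls the replicates biological but does not say whether they were separate cultures, so p-values measure the spread between these libraries. Replicate numbers were taken to pair libraries, because libraries with the same number departed from the means of their groups together (r 0.19 to 0.39 in 6 pairs of groups, and 0.40, 0.66 and 0.52 in the 3′ end pairs). The labels do not state a pairing, and it was judged from the same counts that the block fit tests. Libraries with different numbers were not compared in this way. The fit with the replicate block is an alternative. Other alternatives were RLE size factors, no filter, DESeq2 1.42.0, a fit on a fraction alone and leaving out each library. Scripts were tested on simulated data. Columns used all belong to samples of the series.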

Additional observations from a re-analysis of the deposited data

How the results depend on the processing

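With 2 or 3 libraries a group, a small change could not be told from none, and the intervals given above set the limit. Low end counts limit Fos and Myc, and the pooled CRAC table allows no replicate error.

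RLE size factors, no filter, DESeq2, the replicate block and fits on a fraction alone changed no direction of a value of the 10 genes, and the block changed no call among them other than that of Egr1 in 3′ ends (log2 0.54, 1 of 9 called). Over all genes, calls moved from 0 to 1 in total RNA with DESeq2 and with that fraction alone, from 0 to 3 in polysomal RNA with DESeq2, from 26 to 67 with DESeq2 and 41 with the replicate block for polysomal against total RNA, and from 5 to 35 with DESeq2 and 217 with the block in 3′ ends. Of the 12 CRAC windows 6 had the authors' p-value under 0.05, and the share of Jund was 73.4% by deletions and, in an alternative chosen after seeing the data, 83.0% by the highest window. The 9-letter motif left 2 of 9 genes with a match.

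Leaving out each library in turn gave 0 to 3 of the 10 genes called in polysomal RNA, 0 to 1 in translation efficiency and 0 to 3 for polysomal against total RNA, and over all genes 0 to 1 calls in total RNA, 0 to 372 in polysomal RNA, 0 to 47 in translation efficiency, 0 to 2145 for polysomal against total RNA and 2 to 14 in 3′ ends. Every one of the 10 genes so called, and the highest counts over all genes in polysomal RNA, translation efficiency and polysomal against total RNA, came without POL control replicate 1. For polysomal against total RNA, the count was 0 to 2 without any 1 of the other libraries except POL control replicate 2, where it was 27. In 3′ ends it was 14 without HuD replicate 2, 2 without control replicate 1, and 3 without HuD replicate 1 or 3. Some changes turned sign in such a fit. In total RNA the ranges were −0.10 to 0.22 for Fosl2, −0.10 to 0.18 for Jun, −0.088 to 0.10 for Jund, −0.21 to 0.19 for Egr1, −0.10 to 0.0089 for Ier2, −0.0074 to 0.079 for Ier3 and −0.042 to 0.016 for Mycn. In polysomal RNA they were −0.073 to 0.17 for Fosl2, −0.0058 to 0.33 for Jun, −0.12 to 0.65 for Junb, −0.15 to 1.19 for Jund, −0.19 to 0.23 for Egr1, −0.035 to 0.63 for Ier2 and −0.13 to 0.28 for Ier3. In translation efficiency they were −0.048 to 0.079 for Fos, −0.19 to 0.14 for Fosl2, −0.053 to 0.28 for Jun, −0.00080 to 0.78 for Junb, −0.16 to 1.18 for Jund, −0.18 to 0.25 for Egr1, −0.16 to 0.24 for Ier3 and −0.045 to 0.0066 for Myc. For polysomal against total RNA they were −0.15 to 0.10 for Fosl2 and −1.16 to 0.18 for Jund. In 3′ ends they were −0.23 to 0.20 for Jund, −0.090 to 0.27 for Ier3 and −0.60 to 0.13 for Myc, and −0.18 to 0.041 for the distal end of Myc. The causes were not tested.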
